A study of Rattus norvegicus with 9 samples.

Results

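A list of 41 genes of the endoplasmic reticulum (ER) and the early secretory pathway was followed in cartilage progenitor cells that were passaged repeatedly or exposed to fluid shear. The members were listed by symbol for their role in the pathway, and 40 of the 41 were matched to a row among the 34267 genes of the expression table. Mia3 was not analysed here. The cells were wild-type primary cultures from the condylar cartilage of rats, and polyadenylated RNA was sequenced in 9 libraries, 3 in each of 3 groups. P3, the control, held cells cultured to passage 3. P9 held cells cultured to passage 9, the study's model of replicative senescence. FFSS held passage 3 cells subjected to flow fluid shear stress, its model of degeneration under abnormal mechanical load. The study asked which mechanism both models share. No source used here states that replicates are different rats or dishes, and the p-values cover only the variation among these libraries, which may be technical.

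Secreted and membrane proteins enter the ER through the Sec61 channel, fold there with the help of chaperones and disulfide isomerases, and leave in vesicles coated with the COPII proteins. When unfolded protein accumulates, the sensors Ern1 (Ire1), Atf6 and Eif2ak3 (Perk) start the unfolded protein response, which raises chaperones and the machinery of ER-associated degradation, the route by which misfolded proteins are pulled back to the cytosol and destroyed. Cartilage and other matrix-forming cells depend on this pathway because they export large amounts of collagen and proteoglycan. In cartilage the ER-bound factor Creb3l2 is known for driving Sec23a, a COPII coat protein.

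The promoters of some members show the letters through which this response is known to act. The ER stress response element (ERSE), bound by Atf6 and Xbp1 with a CCAAT-binding factor, was searched as CCAAT, 9 bases of any kind and CCACG, and its variant ERSE-II as ATTGG, 1 base of any kind and CCACG, on both strands. RefSeq promoter windows on the GRCr8 build, 250 bases before to 50 after a gene's start, were found for 31 of the 40 members, and those of Atf6, Derl1, Ern1, Kdelr2, Manf, Pdia3, Pdia6, Sec24d and Sec61a1 were not used here. An ERSE stood in 8 of the 31 members (25.8%) and in 21 of 27457 genes in all (0.0765%). ERSE-II stood in 3 members (9.68%) and in 17 genes in all (0.0619%). In all, 11 members held one or the other, out of 38 such genes among the 27457 with a window. A match is a description of the letters, and binding was not measured. The members were listed for their role in this pathway, so a share above that of all genes is no test of the element.

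The ERSE matches are shown in the orientation of the motif, with its fixed bases in capitals, because the same frame recurs in members of different function. The number gives the distance of the farthest base from the gene's start, and the strand is relative to the gene.
Hspa5, 43 bases upstream, same strand: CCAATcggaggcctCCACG
Xbp1, 65 bases upstream, same strand: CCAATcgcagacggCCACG
Hsp90b1, 176 bases upstream, same strand: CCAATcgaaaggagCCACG
Hsp90b1, 72 bases upstream, opposite strand: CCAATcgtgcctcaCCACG
Calr, 232 bases upstream, opposite strand: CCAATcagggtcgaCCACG
Canx, 230 bases upstream, same strand: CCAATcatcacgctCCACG
Dnajc3, 133 bases upstream, same strand: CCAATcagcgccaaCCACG
Creld2, 145 bases upstream, opposite strand: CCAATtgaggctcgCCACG
Derl3, 154 bases upstream, opposite strand: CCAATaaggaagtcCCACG

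The ERSE-II matches are shown in the same way. Hyou1 holds this variant at both places listed.
Hyou1, 188 bases upstream, opposite strand: ATTGGcCCACG
Hyou1, 88 bases upstream, opposite strand: ATTGGgCCACG
Dnajb11, 10 bases upstream, same strand: ATTGGcCCACG
Herpud1, 124 bases upstream, same strand: ATTGGgCCACG

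Upstream stretches of 250 bases are given for 5 members whose levels the results below turn on, 4 of them lower at passage 9 and Herpud1, which had the largest difference between the models among the members. Capitals mark the fixed bases of ERSE or ERSE-II, read here on the gene's own strand, and the last base lies directly before the start.
Hspa5, chr3:38452766-38453015, plus strand: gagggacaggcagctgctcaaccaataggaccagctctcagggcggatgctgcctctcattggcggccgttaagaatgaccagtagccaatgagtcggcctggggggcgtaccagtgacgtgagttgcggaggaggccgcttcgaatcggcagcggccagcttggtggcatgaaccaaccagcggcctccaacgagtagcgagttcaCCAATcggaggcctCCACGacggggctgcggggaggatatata
Xbp1, chr14:84604373-84604622, plus strand: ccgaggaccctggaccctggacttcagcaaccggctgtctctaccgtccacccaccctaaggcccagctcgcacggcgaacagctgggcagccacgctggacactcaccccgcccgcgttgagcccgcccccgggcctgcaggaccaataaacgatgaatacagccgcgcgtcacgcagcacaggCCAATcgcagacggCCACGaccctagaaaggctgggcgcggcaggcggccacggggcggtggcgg
Canx, chr10:35157858-35158107, minus strand: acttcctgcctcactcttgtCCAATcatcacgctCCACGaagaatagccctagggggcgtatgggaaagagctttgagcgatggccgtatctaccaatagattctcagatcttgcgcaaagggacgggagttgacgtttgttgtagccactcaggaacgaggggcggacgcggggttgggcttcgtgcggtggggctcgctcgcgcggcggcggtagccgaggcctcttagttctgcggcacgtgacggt
Hyou1, chr8:53602632-53602881, plus strand: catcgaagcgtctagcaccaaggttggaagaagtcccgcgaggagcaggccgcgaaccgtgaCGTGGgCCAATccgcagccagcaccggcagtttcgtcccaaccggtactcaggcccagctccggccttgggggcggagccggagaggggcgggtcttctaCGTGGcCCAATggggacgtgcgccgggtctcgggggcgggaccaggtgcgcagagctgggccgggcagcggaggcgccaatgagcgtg
Herpud1, chr19:10614708-10614957, minus strand: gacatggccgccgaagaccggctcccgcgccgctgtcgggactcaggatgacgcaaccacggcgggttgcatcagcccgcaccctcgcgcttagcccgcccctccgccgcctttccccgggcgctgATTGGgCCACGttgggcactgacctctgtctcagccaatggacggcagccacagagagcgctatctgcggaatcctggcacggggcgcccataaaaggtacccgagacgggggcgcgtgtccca

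Other elements, of 8 fixed bases against the 10 of ERSE and ERSE-II, were searched in the same windows. TGACGTGG, the core of an element bound by Xbp1 and Atf6, stood in 3 of 31 members, Sec23a, Kdelr3 and Hyou1 (9.68%), against 0.681% of all genes, and in Hyou1 it overlapped the farther ERSE-II. TTGCATCA, a composite element bound by Atf4, stood in 1 member, Herpud1, and in 0.827% of all genes.

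The libraries held 13264930 to 15323790 fragments. A member's level is given as FPKM, which scales fragments for the length of the gene and the size of the library, so that levels of different genes can be compared. Differences between groups are on the scale of log2(FPKM + 1), with limma's standard error (SE) and a p adjusted over all 13059 genes that reached 1 FPKM in at least 3 libraries. A call is an adjusted p under 0.05. Of the 40 members 39 passed that filter. Derl3, a channel protein of ER-associated degradation, was at 0 to 0.193 FPKM and was not tested. Of 9 mesenchymal progenitor markers found, Thy1 (823 to 1437 FPKM over the 9 libraries), Itgb1 (549.7 to 1017), Prrx1 (142 to 396), Cd44 (141 to 184), Pdgfrb (92.3 to 191) and Eng (23.3 to 121) were the highest, Pdgfra (8.32 to 46.1) and Nt5e (3.24 to 11.2) were lower, and Vcam1 was at 0.0181 to 0.874. Of 10 cartilage markers, Acan (29.3 to 609 FPKM), Sox9 (4.06 to 15.3), Comp (0.887 to 10.04), Hapln1 (0.400 to 8.73) and Col9a2 (0.745 to 3.14) were detected above 1 FPKM in some or all libraries. Col2a1, the defining collagen of cartilage, was at 0 to 1.06 FPKM, and Col9a1, Col11a2, Matn3 and Cnmd stayed under 1 FPKM in every library. Mitochondrial transcripts made up 2.12 to 2.32% of the control libraries, 2.31 to 2.56% of those at passage 9 and 2.96 to 3.75% of those under shear. Each library was left out in turn. FFSS replicate 1 lay nearest of the 3 sheared libraries to the P3 mean in 23 of 39 members, so leaving it out in itself tends to move FFSS away from P3. It leaves the P9 minus P3 differences unchanged and alters only their SE, which pools all 3 groups, the genes past the filter and the adjusted p. For Hspa5 that SE was 0.117 with all libraries and 0.113 without it. Counts without this library are given as a description.

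The most abundant members were folding proteins. Averaged over all libraries, Calr (833 FPKM), P4hb (717), Hspa5 (461) and Pdia3 (442) had the highest levels, and the sensors Ern1 (6.60) and Eif2ak3 (14.3) were among the 3 lowest of the 39. All members together summed to 6104 to 6368 FPKM in the control, 4745 to 5144 at passage 9 and 5779 to 6296 under shear. The P9 sums lay below those of both other groups, and the FFSS sums overlapped those of P3. In bulk RNA, fewer cells of a type and less RNA per cell cannot be told apart.

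**Figure D1:**
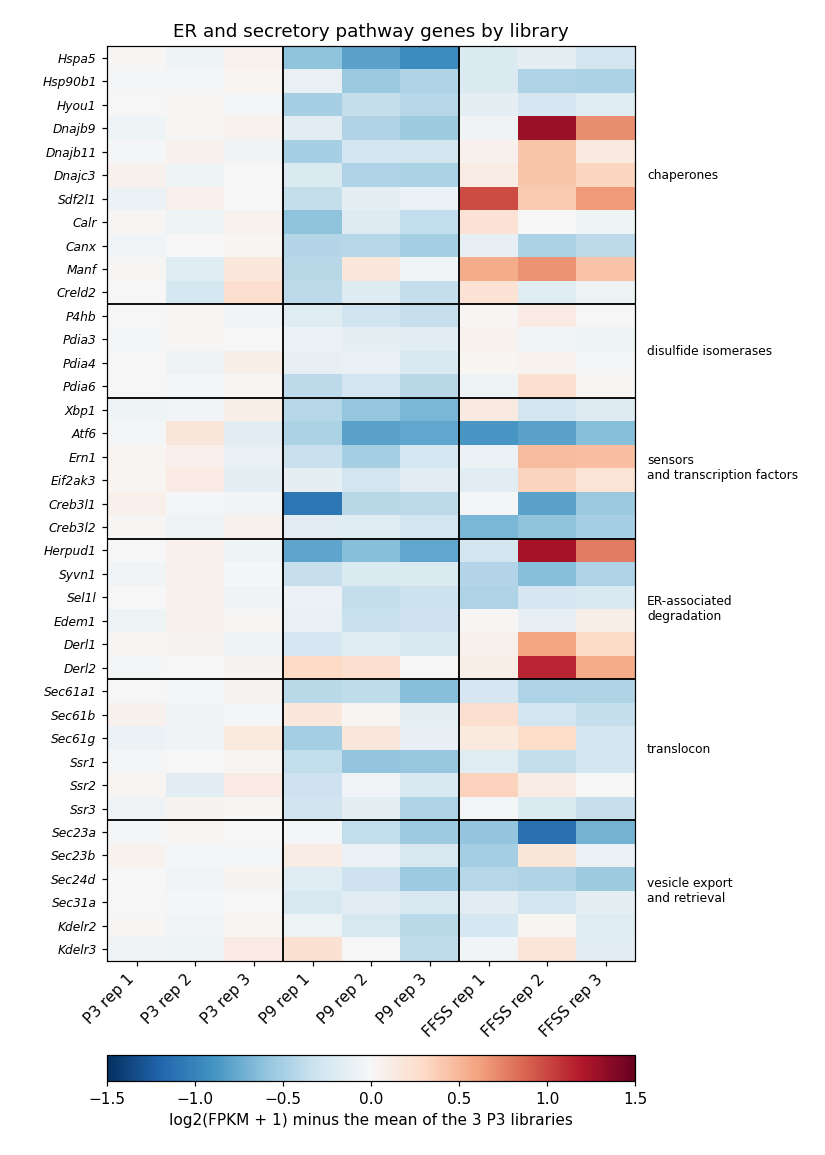
Level of 39 members in each of the 9 libraries (columns, grouped as P3, P9 and FFSS), as log2(FPKM + 1) minus the mean of the 3 P3 libraries, with genes in rows ordered by role. Blue marks lower and red higher levels: the P9 columns are mostly blue, and Herpud1, Dnajb9 and Derl2 are a deeper red in FFSS replicates 2 and 3 than in any other library.

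The mean at passage 9 lay below that of the control for most genes of every role. Of 39 members, 7 fell and none rose (limma, 4.44% of all genes tested fell and 5.39% rose). At an unadjusted p under 0.05, 20 were lower and 0 higher. Limma-voom on fragments, which also scaled by library totals and weighted the values, called 4 lower and 0 higher. With it the median difference over all genes was 0.0440. The 7 were the chaperones Hspa5, Hyou1 and Canx, the stress factors Atf6 and Xbp1, and Sec61a1 and Ssr1 of the entry channel. The direction was wider than the calls. In 29 members (74.4%) every P9 library lay below every P3 library, against 19.1% of all genes, and in 0 members was every P9 library above, against 20.9%. The median difference was -0.30 over the members and -0.00262 over all genes tested, and 37 of 39 differences were below 0.

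The count of calls depended on single libraries. Without replicate 1 or 2 of P3, or replicate 2 or 3 of P9, the members called lower numbered 1, which was Hspa5, and without P3 replicate 3 they numbered 2, Hspa5 and Atf6. Without FFSS replicate 1 they numbered 11, with Dnajc3, Pdia6, Creb3l1 and Herpud1 added, and 0 were called higher (all genes then 7.78% lower and 9.53% higher). Here and below, the share over all genes is not given for other libraries left out or other settings. Whether counts of the members or of the further lists moved more than those of all genes was not tested.

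Hspa5 encodes BiP, the Hsp70 chaperone of the ER and the standard readout of the unfolded protein response (Rnor_6.0 chromosome 3, 13838304 to 13842762, plus strand). It was at 569.6, 541 and 584 FPKM in the control libraries, 372, 323 and 294 at passage 9 and 486, 513 and 466 under shear. The 3 groups did not overlap, with P9 lowest and P3 highest. The fall at passage 9 (log2 difference -0.78, SE 0.117, adjusted p = 0.00373) remained called in all 17 alternative settings tried. The means were 565 ± 21.4 and 329.8 ± 39.3 FPKM (SD, n = 3), so P9 held 0.584 times the P3 level.

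Hyou1, a large Hsp70 relative that recharges BiP, was at 73.7, 74.2 and 72.04 FPKM in P3 and 51.5, 56.8 and 54.3 in P9, with no overlap (log2 difference -0.43, SE 0.0892, adjusted p = 0.0165). Canx, the membrane-bound lectin chaperone of N-glycoproteins, was at 183, 189 and 192 FPKM in P3 and 138, 139 and 133 in P9, again with no overlap (log2 difference -0.46, SE 0.112, adjusted p = 0.0342). Both calls changed with the libraries fitted. Hyou1 was no longer called without any one P3 library or replicate 2 or 3 of P9 (adjusted p = 0.0529 to 0.0903). Canx was not called without any one P3 library, any one P9 library or replicate 3 of FFSS (adjusted p = 0.0577 to 0.132), and also with library totals, with limma-voom and with pseudocount 0.1 and no filter.

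The other 8 chaperones and co-chaperones had lower means at passage 9 without passing the test. Hsp90b1, the Hsp90 of the ER, was at 353, 355 and 366 FPKM in P3 and 332, 244 and 261 in P9 (log2 difference -0.37, SE 0.138, adjusted p = 0.140). Calr, the soluble partner of calnexin, was at 902, 848 and 923 and 584, 778 and 688 FPKM (log2 difference -0.39, SE 0.141, adjusted p = 0.129). The 3 J-domain co-chaperones of BiP, Dnajb9, Dnajb11 and Dnajc3, were at 11.96, 12.7 and 13.1, at 93.7, 99.2 and 91.2 and at 60.2, 54.8 and 57.2 FPKM in P3, and had differences of -0.38, -0.36 and -0.38 (adjusted p = 0.486, 0.113 and 0.0860). In all 3 the P9 libraries lay below the P3 libraries. Sdf2l1, a partner of Dnajb11, Creld2, a stress-inducible ER protein, and Manf, a small BiP-binding factor, had differences of -0.20, -0.31 and -0.10. Manf and Creld2 overlapped between P3 and P9. The 11 chaperones summed to 2392 to 2572 FPKM in P3 and 1787 to 1927 in P9.

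Disulfide isomerases, which form and rearrange the bonds between cysteines, had lower means at passage 9, by small amounts. Limma called 0 of the 4 (2 lower at an unadjusted p under 0.05, 0 with limma-voom). P4hb, which is also the beta subunit of collagen prolyl hydroxylase, averaged 752 ± 18.3 FPKM in the control and 621 ± 36.1 at passage 9 (SD, n = 3; log2 difference -0.28, SE 0.105, adjusted p = 0.151). Pdia6 was at 363 ± 6.80 and 282 ± 12.96 FPKM (log2 difference -0.36, SE 0.112, adjusted p = 0.0808). Pdia3, which works with calnexin and calreticulin, and Pdia4 had differences of -0.14 and -0.15, with 95% intervals of -0.35 to 0.08 and -0.37 to 0.07. In each of the 4 the P9 libraries lay below all P3 libraries.

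Among the sensors and transcription factors, Atf6 and Xbp1 fell. Atf6, the sensor that is cut in the Golgi to release a transcription factor (Rnor_6.0 chromosome 13, 89055983 to 89242443, minus strand), was at 42.98, 49.9 and 39.3 FPKM in P3 and 31.4, 24.7 and 25.1 in P9 (log2 difference -0.68, SE 0.137, adjusted p = 0.0144). Xbp1, the factor that Ern1 activates by splicing its RNA, was at 124, 126 and 139.8 FPKM in P3 and 95.97, 86.6 and 80.4 in P9 (log2 difference -0.57, SE 0.133, adjusted p = 0.0293). Neither overlapped. The table sums all forms of Xbp1 RNA, so splicing was not measured. Atf6 was no longer called without replicate 1 or 2 of P3 or replicate 2 or 3 of P9 (adjusted p = 0.0592 to 0.0747). Xbp1 was not called without any one P3 library or replicate 2 or 3 of P9 (adjusted p = 0.0783 to 0.125), and with library totals and limma-voom. Ern1 and Eif2ak3 had differences of -0.36 and -0.20 (adjusted p = 0.245 and 0.481). Creb3l1 and Creb3l2, ER-bound factors of bone and cartilage cells, had -0.63 and -0.21 (adjusted p = 0.137 and 0.246). P9 replicate 1 was the lowest for Creb3l1, at 30.96 FPKM against 49.8 and 50.9 in the other P9 libraries.

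At the entry channel, Sec61a1, which forms the pore, was at 199, 196 and 205 FPKM in P3 and 151, 154 and 129 in P9 (log2 difference -0.47, SE 0.110, adjusted p = 0.0293). Ssr1, a subunit of the TRAP complex that assists the channel, was at 115, 117 and 119.8 and 90.8, 77.7 and 78.98 FPKM (log2 difference -0.51, SE 0.101, adjusted p = 0.0145). Both were without overlap. The small channel subunits Sec61b and Sec61g overlapped between the groups, with differences of 0.02 (95% interval -0.36 to 0.39) and -0.16 (-0.61 to 0.29). Ssr2 and Ssr3, further TRAP subunits, had -0.19 and -0.30. Sec61a1 was no longer called without any one P3 library, replicate 2 or 3 of P9 or replicate 3 of FFSS (adjusted p = 0.0510 to 0.120), and with library totals and limma-voom. Ssr1 was not called without any one P3 library or replicate 2 or 3 of P9 (adjusted p = 0.0548 to 0.0774).

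No gene of ER-associated degradation or of vesicle traffic passed the test at passage 9 (limma; 3 of 6 and 2 of 6 lower at an unadjusted p under 0.05, 0 with limma-voom). Herpud1, which brings substrates to the degradation complex, showed the largest difference of them. It was at 81.6, 85.8 and 78.4 FPKM in P3 and 46.96, 52.2 and 47.3 in P9, with no overlap and little spread (log2 difference -0.74, SE 0.315, adjusted p = 0.203). The SE pools all 3 groups, and FFSS held the widest spread of this gene. Without FFSS replicate 1 the adjusted p was 0.00603. Syvn1, the ubiquitin ligase of the complex, its partner Sel1l, the lectin Edem1 and the channel protein Derl1 had differences of -0.26, -0.26, -0.25 and -0.22. Derl2 had a higher mean in P9, 32.4 ± 3.59 against 28.3 ± 0.773 FPKM (SD, n = 3), and overlapped. In vesicle traffic the differences ran from -0.34 (Sec24d) to -0.05 (Kdelr3). The KDEL receptors Kdelr2 and Kdelr3, which return escaped chaperones to the ER, were at 122 ± 14.02 and 73.6 ± 15.2 FPKM in P9 and 144 ± 3.86 and 75.4 ± 5.52 in P3.

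**Figure D2:**
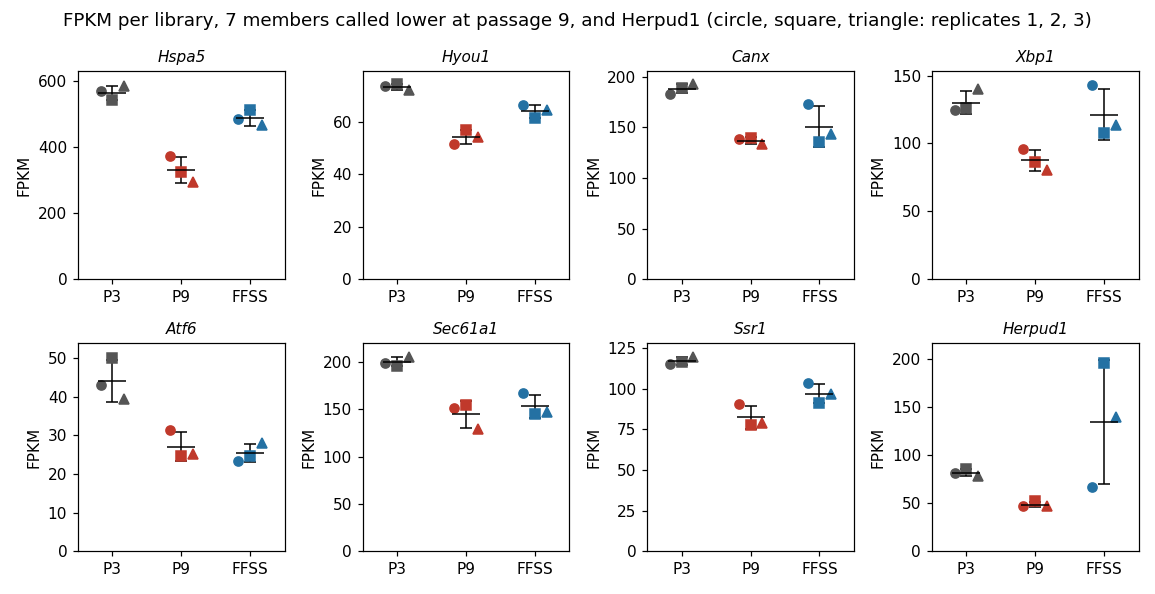
FPKM of the 7 members called lower at passage 9, and of Herpud1, in each library, with the mean and SD of each group (n = 3) as bars and replicates 1 to 3 as circle, square and triangle; the vertical axes start at 0. In all 8 panels the P9 points lie below every P3 point, and Herpud1 spreads from 67.3 to 196 FPKM in FFSS.

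The members with an ERSE or ERSE-II shown above were set beside those whose window held neither. Of the 10 tested with an element, 4 fell at passage 9 (Hspa5, Xbp1, Canx and Hyou1), with a median difference of -0.41 and a range of -0.78 to -0.31. Of the 20 with a window and neither element, 1 fell (Ssr1), with a median of -0.21 and a range of -0.63 to 0.19. Under shear stress the medians were -0.06 and -0.07. The difference between these sets was not tested.

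Under shear stress the members moved in both directions. Of 39, 6 fell (against 10.4% of all genes) and 2 rose (against 11.4%), which is 15.4% and 5.13% of the members. The share that fell was little above that of all genes, and the share that rose was below it. Those that fell were Atf6, Creb3l2, Syvn1, Sec61a1, Sec23a and Sec24d, and those that rose were Sdf2l1 and Manf. The median difference was -0.02 over the members and -0.01 over all genes. Every FFSS library lay below every P3 library in 13 members (22.3% of all genes) and above in 5 (20.1%). As a description, without FFSS replicate 1 the counts were 10 lower (19.7% of all genes) and 8 higher (19.3%). The higher members numbered 0 without replicate 1 or 3 of P3 or replicate 3 of FFSS, and 1 without replicate 2 of P3, 3 of P9 or 2 of FFSS, and the lower ones 3 without P3 replicate 2.

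The members that fell under shear included a factor of cartilage secretion and 2 proteins of the vesicle coat. Creb3l2 was at 43.3, 40.5 and 45.002 FPKM in P3 and 26.2, 27.9 and 30.1 in FFSS (log2 difference -0.60, SE 0.0990, adjusted p = 0.00538). Sec23a, of the inner COPII coat, was at 40.03, 41.2 and 40.8 FPKM in P3 and 26.6, 18.2 and 24.4 in FFSS (log2 difference -0.81, SE 0.171, adjusted p = 0.0125). Sec24d, the coat's cargo adaptor, was at 93.4, 90.7 and 95.6 and 68.8, 67.9 and 64.2 FPKM (log2 difference -0.47, SE 0.112, adjusted p = 0.0192). None of these 3 overlapped between P3 and FFSS. Creb3l2 and Sec23a remained called in all 17 alternative settings, and Sec24d was no longer called without any one P3 library or replicate 3 of FFSS (adjusted p = 0.0598 to 0.0743). Sec23b, the paralog of Sec23a, was at 28.5, 26.98 and 26.9 FPKM in P3 and 19.03, 31.3 and 25.9 in FFSS, overlapping (log2 difference -0.14, 95% interval -0.53 to 0.26). Sec31a, of the outer coat, had a difference of -0.20 (adjusted p = 0.134). Kdelr2 and Kdelr3 had -0.14 and -0.01. Whether Sec23a differed from Sec23b in its response was not tested.

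Atf6 was at 23.4, 24.6 and 27.9 FPKM in FFSS, all below the P3 libraries (log2 difference -0.77, SE 0.137, adjusted p = 0.00669), and was called in all 17 alternative settings. Its difference was -0.68 at passage 9 and -0.77 under shear. Sec61a1 was at 167, 145 and 147 FPKM in FFSS, also below P3 (log2 difference -0.39, SE 0.110, adjusted p = 0.0365), with -0.47 at passage 9. Both comparisons use the same 3 control libraries. Syvn1 was at 16.2, 17.5 and 16.2 FPKM in P3 and 11.97, 10.3 and 11.8 in FFSS, with no overlap (log2 difference -0.51, SE 0.105, adjusted p = 0.0112). Sec61a1 lost its call under shear without any one P3 library, replicate 2 of P9 or replicate 2 or 3 of FFSS (adjusted p = 0.0537 to 0.119), and with pseudocount 0.1 and no filter. Syvn1 was no longer called without replicate 2 of P3 (adjusted p = 0.0533).

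Sdf2l1 and Manf rose under shear. Sdf2l1 was at 25.9, 28.97 and 27.7 FPKM in P3 and 54.9, 36.5 and 43.3 in FFSS (log2 difference 0.67, SE 0.153, adjusted p = 0.0167). Manf was at 183, 159 and 203 and 267, 289 and 243 FPKM (log2 difference 0.55, SE 0.165, adjusted p = 0.0430). The FFSS libraries lay above all P3 libraries in both, and for Sdf2l1 replicate 1 was the highest of them. Sdf2l1 was no longer called without replicate 1 or 3 of P3 or replicate 3 of FFSS (adjusted p = 0.0518 to 0.0698). Manf was not called without any one P3 library, replicate 3 of P9 or replicate 2 or 3 of FFSS (adjusted p = 0.0624 to 0.146), and with no filter at either pseudocount.

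The sheared libraries differed among themselves. FFSS replicate 1 was the lowest of the 3 in 14 of 39 members and the highest in 17. In Herpud1, Dnajb9 and Derl2, singled out after their values were seen, it was the lowest. Herpud1 was at 67.3, 196 and 140.3 FPKM in FFSS replicates 1 to 3, against 81.95 ± 3.74 in P3 (SD, n = 3; log2 difference 0.58, SE 0.315, adjusted p = 0.212). Dnajb9 was at 12.1, 32.4 and 20.96 FPKM against 12.6 ± 0.574 in P3 (log2 difference 0.65, SE 0.287, adjusted p = 0.136). Derl2 was at 30.2, 63.7 and 42.1 FPKM against 28.3 ± 0.773 (log2 difference 0.60, SE 0.229, adjusted p = 0.0922). None of the 3 was called. Replicate 1 was the highest in some others that ER stress is also known to raise, likewise picked after their values were seen. Xbp1 was at 143, 107 and 113 FPKM in FFSS replicates 1 to 3, Creld2 at 41.4, 31.3 and 33.6 and Calr at 1035, 885 and 854. In Dnajb11 (99.1, 127 and 104 FPKM) and Dnajc3 (62.1, 77.2 and 72.1) replicate 1 was again the lowest. In Hspa5 and Manf it lay between the others.

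Most of the abundant folding proteins had small differences under shear, with lower values for Hsp90b1 and Canx. Hsp90b1 was at 308, 260.0 and 258 FPKM in FFSS (log2 difference -0.38, SE 0.138, adjusted p = 0.0788) and Canx at 173, 136 and 143 (log2 difference -0.33, SE 0.112, adjusted p = 0.0672). In both every FFSS library lay below every P3 library, and neither was called. Hspa5 was at 488 ± 23.9 FPKM in FFSS (SD, n = 3; log2 difference -0.21, SE 0.117, adjusted p = 0.224). Calr, P4hb, Pdia3, Pdia4 and Pdia6 had differences of 0.05, 0.05, -0.02, 0.02 and 0.06. The 95% interval for Calr was -0.27 to 0.37, and that for P4hb was -0.19 to 0.29. Limma called 0 of the 4 isomerases (0 at an unadjusted p under 0.05, 0 with limma-voom). Among the sensors, Eif2ak3 was at 12.8, 18.4 and 16.8 FPKM in FFSS and 14.7, 15.8 and 12.9 in P3, overlapping (log2 difference 0.13, SE 0.147, adjusted p = 0.565).

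**Figure D3:**
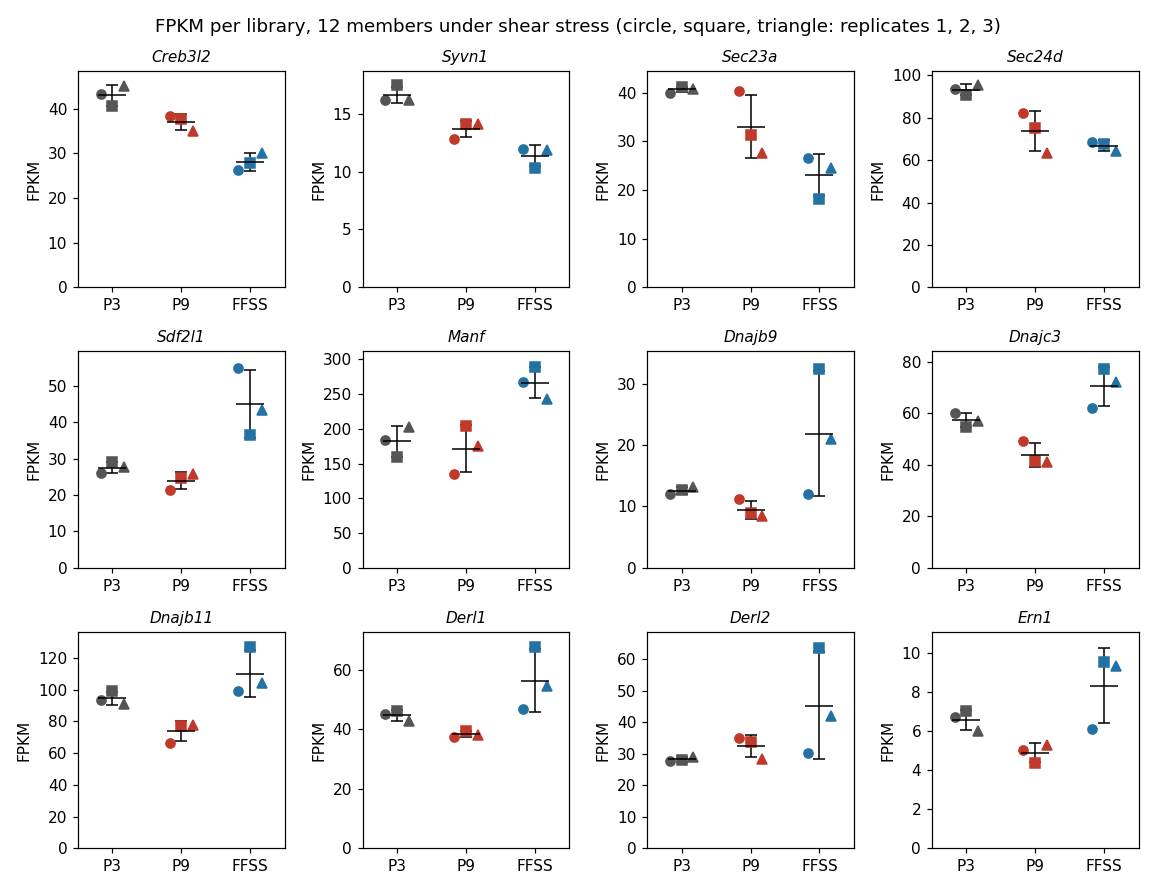
FPKM of 12 members in each library, with the mean and SD of each group (n = 3) as bars and replicates 1 to 3 as circle, square and triangle; the vertical axes start at 0. Creb3l2, Syvn1, Sec23a and Sec24d lie below P3 in all 3 FFSS libraries, whereas Dnajb9 and Ern1 lie above P3 in FFSS replicates 2 and 3 and not in replicate 1.

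Marker genes of other cell types were read in the same libraries. The leukocyte markers found numbered 11 and summed to 10.2 to 12.1 FPKM in the control, 6.29 to 7.33 at passage 9 and 43.01 to 108 under shear. Most of the FFSS sum was Cd14, at 39.9 to 94.3 FPKM, while Ptprc, which marks all leukocytes, was at 0 to 0.0400 FPKM over the 9 libraries and Cd3e was at 0. Cd68 was at 0.533 to 0.873 FPKM in P3 and 2.11 to 2.60 in FFSS (limma, adjusted p = 0.00780). In FFSS replicates 1 to 3 Lyz2 was at 0.0562, 5.36 and 2.94 FPKM and Csf1r at 0.0840, 3.17 and 2.08. Both stayed under 1 FPKM in P3 and P9. Adgre1, Aif1 and Tyrobp stayed under 1 FPKM in every library, and Cd74 was highest in P9, at 0.534 to 1.84. Endothelial markers, 9 of which were found, summed to 13.6 to 13.99, 6.98 to 13.3 and 16.9 to 21.4 FPKM in the same order, with Cdh5, Emcn, Cldn5 and Tie1 at 0. Most of these sums was Egfl7, at 12.2 to 12.3, 6.65 to 12.7 and 14.9 to 17.9 FPKM. Erg was at 0.508 to 0.876, 0.0611 to 0.593 and 0.947 to 2.97 FPKM. Skeletal muscle markers, 10 of which were found, summed to 8.72 to 21.1, 39.7 to 47.2 and 10.1 to 41.5 FPKM in the same order, with Pax7 at 0. Most of the P9 sum was Acta1, at 35.1 to 42.5 FPKM, against 2.45 to 13.8 in P3 and 0.233 to 1.48 in FFSS. Most of the FFSS sum was Tnnt3, at 8.29, 36.99 and 25.8 FPKM in replicates 1 to 3, against 3.78 to 5.68 in P3 and 3.27 to 5.35 in P9. Myod1, Myog, Myh3 and Ckm stayed under 1 FPKM in every library. Epithelial markers, 8 of which were found, reached at most 2.13 FPKM in sum, with Krt5, Cldn4 and Krt19 at 0. The part of these sums, and of the mitochondrial share, in the differences of the members was not tested.

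The test of P9 against FFSS asked whether the models differ. Of 39 members, 13 were lower in P9 than in FFSS (15.3% of all genes were) and 1, Creb3l2, was higher (16.1%). Every P9 library lay below every FFSS library in 19 members (20.0% of all genes) and above in 3 (22.2%). The 13 were 7 chaperones (Hspa5, Dnajb9, Dnajb11, Dnajc3, Sdf2l1, Calr and Manf), the isomerases P4hb and Pdia6, the stress factors Xbp1 and Ern1, and Herpud1 and Derl1 of ER-associated degradation. The count was 8 without P9 replicate 3 and 7 without FFSS replicate 3, against 14 without FFSS replicate 1 (22.0% of all genes). It was 6 when only the P9 and FFSS libraries were fitted. Those called higher numbered 0 without P9 replicate 2, 2 without P9 replicate 3 and 3 without FFSS replicate 1 (23.7% of all genes).

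The largest of these differences was that of Herpud1, at 46.96, 52.2 and 47.3 FPKM in P9 and 67.3, 196 and 140.3 in FFSS (log2 difference -1.32, SE 0.315, adjusted p = 0.0136). It was no longer called without replicate 3 of FFSS (adjusted p = 0.0530). Hspa5 (log2 difference -0.57, SE 0.117, adjusted p = 0.00701), Dnajb11 (log2 difference -0.56, SE 0.122, adjusted p = 0.00869), Dnajc3 (log2 difference -0.67, SE 0.119, adjusted p = 0.00373), Sdf2l1 (log2 difference -0.87, SE 0.153, adjusted p = 0.00347) and Manf (log2 difference -0.65, SE 0.165, adjusted p = 0.0174) remained called in all 17 alternative settings. At passage 9 Sdf2l1 was at 21.3, 24.7 and 25.9 FPKM and Manf at 135, 204 and 175, both below their sheared libraries. Dnajc3, which also inhibits the kinase Eif2ak3, was at 49.3, 41.5 and 41.1 FPKM in P9 and 62.1, 77.2 and 72.1 in FFSS, without overlap. Dnajb11 was at 66.6, 77.4 and 77.7 and 99.1, 127 and 104 FPKM, also without overlap. Creb3l2 was at 38.3, 37.6 and 34.9 FPKM in P9 and 26.2, 27.9 and 30.1 in FFSS (log2 difference 0.39, SE 0.0990, adjusted p = 0.0180), and was no longer called without replicate 2 of P9 (adjusted p = 0.0637) or with only the P9 and FFSS libraries (adjusted p = 0.0714).

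Further calls between the models depended more on the libraries fitted. Dnajb9 was at 11.2, 8.91 and 8.40 FPKM in P9 and 12.1, 32.4 and 20.96 in FFSS (log2 difference -1.03, SE 0.287, adjusted p = 0.0255), and was no longer called without replicate 2 or 3 of P9 or replicate 3 of FFSS (adjusted p = 0.0747 to 0.0752). Ern1 was at 5.02, 4.37 and 5.31 FPKM in P9 and 6.11, 9.54 and 9.35 in FFSS (log2 difference -0.64, SE 0.169, adjusted p = 0.0203), and was no longer called without replicate 2 of P9 or replicate 2 or 3 of FFSS (adjusted p = 0.0574 to 0.0759). Xbp1 was at 95.97, 86.6 and 80.4 FPKM in P9 and 143, 107 and 113 in FFSS (log2 difference -0.46, SE 0.133, adjusted p = 0.0298), and was no longer called without replicate 1 of P3, replicate 2 or 3 of P9 or replicate 3 of FFSS (adjusted p = 0.0530 to 0.0909). In each of these 3, the P9 libraries lay below every FFSS library. Xbp1 was also not called with library totals, limma-voom or only the P9 and FFSS libraries (adjusted p = 0.0594 to 0.0846), and Dnajb9 (adjusted p = 0.0679) and Ern1 (0.0630) were not with only those libraries.

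Among the abundant folding proteins, Calr and P4hb were close to the threshold. Pdia6 was at 277, 297 and 273 FPKM in P9 and 346, 431 and 367 in FFSS (log2 difference -0.43, SE 0.112, adjusted p = 0.0195), and was no longer called without replicate 3 of P9 (adjusted p = 0.0585). Calr was at 584, 778 and 688 FPKM in P9 and 1035, 885 and 854 in FFSS (log2 difference -0.44, SE 0.141, adjusted p = 0.0417), and was no longer called without any one P3 library, replicate 1 or 3 of P9 or any one FFSS library (adjusted p = 0.0636 to 0.0976). P4hb was at 662, 611 and 592 FPKM in P9 and 762, 821 and 752 in FFSS (log2 difference -0.33, SE 0.105, adjusted p = 0.0436), and was no longer called without any one P3 library, replicate 2 or 3 of P9 or replicate 2 or 3 of FFSS (adjusted p = 0.0754 to 0.114). All 3 were without overlap. With only the P9 and FFSS libraries Pdia6 was not called (adjusted p = 0.0800). Calr was called in 3 and P4hb in 4 of the 17 alternative settings. In the control libraries Pdia6 was at 365, 356 and 369 FPKM, P4hb at 754, 769 and 732 and Ern1 at 6.71, 7.01 and 6.01.

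Derl1, at 37.4, 39.4 and 38.1 FPKM in P9 and 46.7, 67.8 and 54.6 in FFSS (log2 difference -0.53, SE 0.134, adjusted p = 0.0168), was called without each library in turn, and was not called with only the P9 and FFSS libraries (adjusted p = 0.0596). Herpud1 and Derl1 apart, no member of ER-associated degradation, of the entry channel or of vesicle traffic was called. Atf6, lower than P3 in both models, had a difference between them of 0.09 (95% interval -0.22 to 0.40), and Sec61a1 of -0.08 (-0.33 to 0.17).

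**Figure D4:**
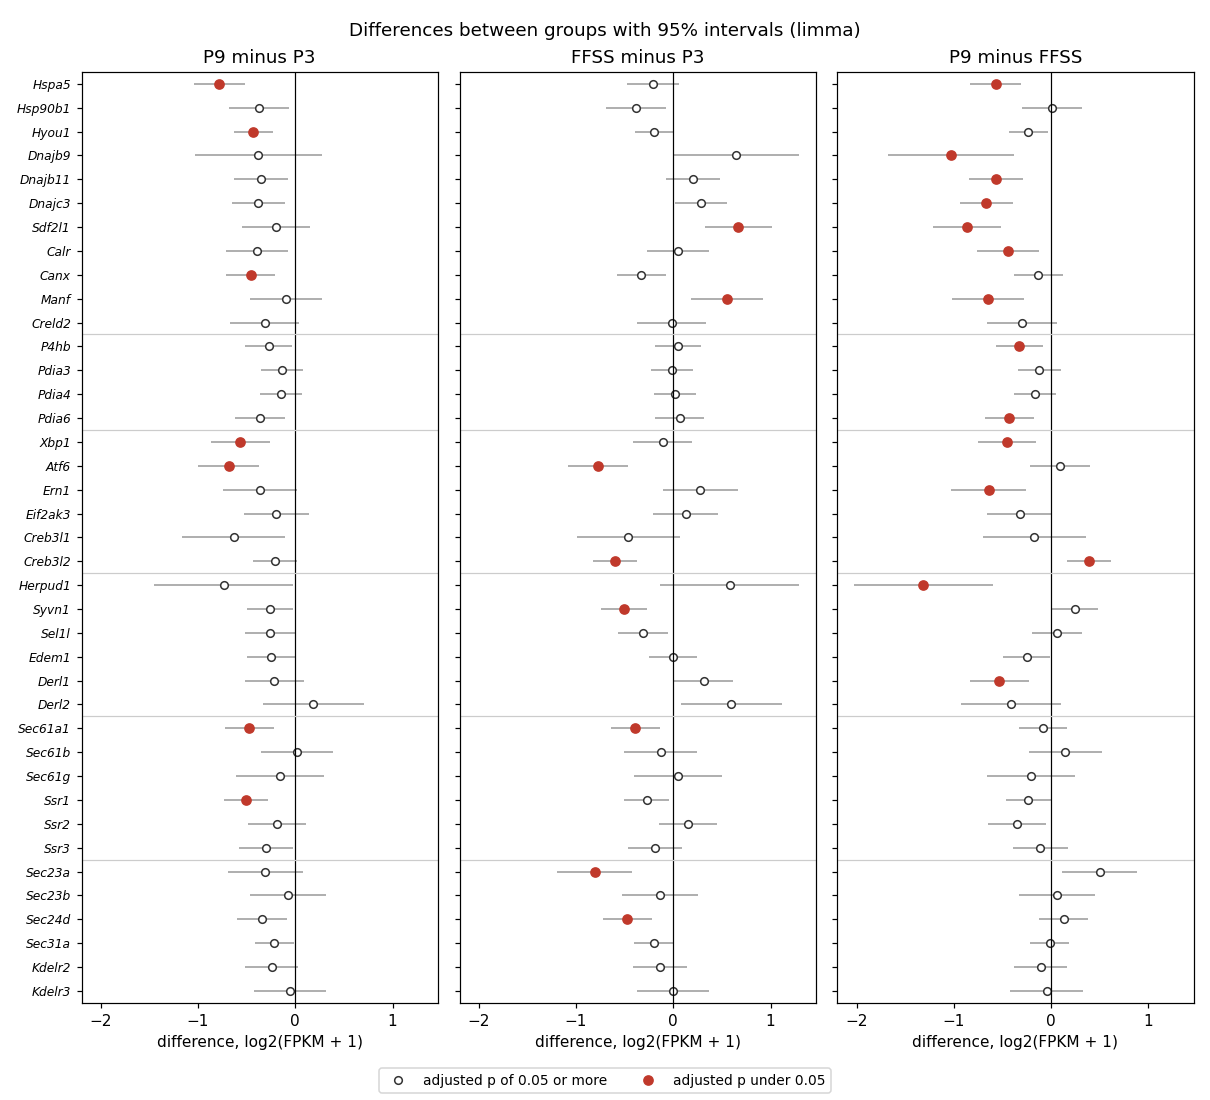
Difference of 39 members in each comparison on the scale of log2(FPKM + 1), with 95% intervals from limma as lines; filled red points have an adjusted p under 0.05. Points of P9 minus P3 lie left of 0 in 37 of 39 genes, points of FFSS minus P3 in 23, and points of P9 minus FFSS in 30.

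Other genes of the pathway were read from lists put together by function, beside the 4.44% lower and 5.39% higher at passage 9 and the 10.4% and 11.4% under shear over all genes. For every list, the shares of all genes lower and higher in P9 than in FFSS were 15.3% and 16.1%. Of 41 further folding factors, 0 fell and 2 rose at passage 9 (limma; 4 lower at an unadjusted p under 0.05, 1 with limma-voom), and 2 fell and 9 rose under shear. The median differences were -0.18 and 0.27. Rcn2, a calcium-binding protein of the ER lumen, rose from 87.9 ± 1.65 to 144 ± 2.78 FPKM at passage 9 (adjusted p = 0.00520), and Clgn, a relative of calnexin, from 5.70 ± 0.676 to 14.2 ± 3.14 (adjusted p = 0.0447). Under shear Sdf2, the paralog of Sdf2l1, rose from 56.01 ± 2.87 FPKM to 91.3, 199 and 136 FPKM in the 3 libraries (adjusted p = 0.00836). Cnpy4 rose to 77.3, 134 and 105 FPKM from 53.03 ± 6.18 (adjusted p = 0.00989). Clgn was no longer called without any one P3 library, any one P9 library or replicate 3 of FFSS (adjusted p = 0.0604 to 0.156), nor with a pseudocount of 0.1, no filter or both. With each library left out in turn, lower calls at passage 9 numbered 0 (without any one P3 library, replicate 2 or 3 of P9 or replicate 3 of FFSS) to 4 (without replicate 1 of FFSS) and higher calls 1 to 2 (without replicate 1 or 2 of FFSS). Under shear, lower calls numbered 0 (without any one P3 library, replicate 2 of P9 or replicate 2 or 3 of FFSS) to 5 (without replicate 1 of FFSS) and higher calls 2 (without replicate 1 of P3) to 19 (without replicate 1 of FFSS). For P9 against FFSS, lower calls numbered 13 (without replicate 3 of FFSS) to 22 (without replicate 1 of FFSS) and higher calls 2 to 3 (without replicate 1 of FFSS). Between the models, 19 of 41 were lower in P9 and 2 higher, beside 15.3% and 16.1% of all genes.

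Of 29 further genes of targeting, entry and N-glycosylation, 2 fell and 0 rose at passage 9, and 2 fell and 4 rose under shear. The 2 that fell at passage 9 were Spcs3, a subunit of signal peptidase, at 65.1, 70.6 and 67.99 FPKM in P3 and 42.2, 31.6 and 35.7 in P9 (adjusted p = 0.00432), and Tram2, a channel-associated protein linked to collagen synthesis (adjusted p = 0.0499). Tram2 was at 36.6, 33.3 and 34.8 FPKM in P3, 25.1, 21.3 and 20.6 in P9 and 18.2, 11.6 and 17.7 in FFSS, and fell under shear too (adjusted p = 0.00366). The call at passage 9 held in 4 of 17 alternative settings. It was lost without any one P3 library, any one P9 library or replicate 3 of FFSS (adjusted p = 0.0659 to 0.175), and with a pseudocount of 0.1, no filter, both together, library totals and limma-voom. Sec11a, the catalytic subunit of signal peptidase, rose under shear from 82.4 ± 1.49 to 113 ± 12.9 FPKM (adjusted p = 0.0206), a call lost without any one P3 library (adjusted p = 0.0621 to 0.0791). With each library left out in turn, lower calls at passage 9 numbered 1 to 3 (without replicate 1 of FFSS) and higher calls 0 in every case. Under shear, lower calls numbered 1 to 4 (without replicate 1 of FFSS) and higher calls 0 (without any one P3 library) to 8 (without replicate 1 of FFSS). For P9 against FFSS, lower calls numbered 4 (without replicate 3 of P9 or replicate 3 of FFSS) to 8 (without replicate 1 of FFSS) and higher calls 0 to 3 (without replicate 1 of FFSS). Between the models, 8 were lower in P9 and 0 higher.

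Of 26 further genes of ER-associated degradation, limma called 0 at passage 9 (5 lower and 1 higher at an unadjusted p under 0.05, 0 with limma-voom), and under shear 6 rose and 1 fell. Edem2, a relative of Edem1, rose under shear from 10.02 ± 0.814 to 15.7 ± 0.160 FPKM (adjusted p = 0.00897), and Selenok, a selenoprotein of the ER membrane, from 63.8 ± 9.23 to 97.7 ± 12.4 FPKM (adjusted p = 0.0139). Selenok was no longer called without replicate 1 or 2 of P3 (adjusted p = 0.0609 to 0.0668). With each library left out in turn, lower calls at passage 9 numbered 0 in every case and higher calls 0 in every case. Under shear, lower calls numbered 0 (without any one P3 library, replicate 2 of P9 or replicate 2 of FFSS) to 2 (without replicate 1 of P9 or replicate 1 of FFSS) and higher calls 1 (without replicate 1 of P3) to 9 (without replicate 1 of FFSS). For P9 against FFSS, lower calls numbered 2 (without replicate 2 of P3, replicate 2 or 3 of P9 or replicate 2 or 3 of FFSS) to 12 (without replicate 1 of FFSS) and higher calls 0 to 1 (without replicate 1 or 3 of FFSS). Between the models, 7 were lower in P9 and 0 higher.

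Of 45 further genes of ER-Golgi traffic, 1 fell at passage 9, and 7 fell and 6 rose under shear. Sec22b, a vesicle fusion protein, was at 54.8 ± 1.38 FPKM in P3, 40.1 ± 3.35 in P9 and 39.6 ± 1.82 in FFSS (adjusted p = 0.0226 at passage 9 and 0.0129 under shear). It lost the first call without any one P3 library or replicate 1 or 3 of P9 (adjusted p = 0.0537 to 0.105) and the second without replicate 1 or 3 of P3 (adjusted p = 0.0549 to 0.0557). Under shear Uso1, a tethering factor of vesicles, fell from 76.3 ± 1.12 to 50.8 ± 1.87 FPKM (adjusted p = 0.00842), and Ergic3, a protein of the ER-Golgi intermediate compartment, rose from 104 ± 2.75 to 159 ± 22.2 (adjusted p = 0.0105). Ergic3 was no longer called without replicate 1 of P3 (adjusted p = 0.0510). With each library left out in turn, lower calls at passage 9 numbered 0 (without any one P3 library or replicate 3 of P9) to 4 (without replicate 1 of FFSS) and higher calls 0 to 1 (without replicate 1 or 2 of FFSS). Under shear, lower calls numbered 1 (without replicate 3 of P3) to 11 (without replicate 1 of FFSS) and higher calls 0 (without replicate 1 of P3) to 9 (without replicate 1 of FFSS). For P9 against FFSS, lower calls numbered 5 (without replicate 1 or 3 of P9 or replicate 3 of FFSS) to 11 (without replicate 1 of FFSS) and higher calls 1 (without replicate 3 of FFSS) to 7 (without replicate 1 of FFSS). Between the models, 7 were lower in P9 and 4 higher.

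Of 18 genes of other sensors and of the Atf4 arm, 1 fell at passage 9, the Atf4 target Trib3, at 63.5, 69.8 and 56.3 FPKM in P3 and 19.2, 23.8 and 21.6 in P9 (adjusted p = 0.00207). Under shear 4 of these fell and 2 rose, and the differences ran from -1.02 to 3.15, with a median of 0.08. The 2 that rose were not among the genes named by the smallest adjusted p. Trib3 fell under shear too, to 28.5, 51.2 and 40.97 FPKM (limma, adjusted p = 0.0414), a call kept in 8 of 17 alternative settings. Asns, asparagine synthetase, fell from 67.3 ± 3.32 to 35.01 ± 0.850 FPKM (adjusted p = 0.00117), and Wfs1, wolframin of the ER membrane, from 10.4 ± 1.93 to 4.72 ± 1.62 FPKM (adjusted p = 0.0126). Wfs1 was no longer called without replicate 2 of P3 (adjusted p = 0.0543). With each library left out in turn, lower calls at passage 9 numbered 1 to 7 (without replicate 1 of FFSS) and higher calls 0 in every case. Under shear, lower calls numbered 1 (without replicate 2 of P3) to 4 (without replicate 1 of P9 or replicate 1 or 2 of FFSS) and higher calls 0 (without replicate 3 of FFSS) to 5 (without replicate 1 of FFSS). For P9 against FFSS, lower calls numbered 3 (without replicate 3 of FFSS) to 10 (without replicate 1 of FFSS) and higher calls 2 to 3 (without replicate 2 of FFSS). Between the models, 6 were lower in P9 and 3 higher, and the differences ran from -4.25 to 1.38.

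More genes of the cargo that this pathway exports fell than rose in both models. Of 25 collagens and other matrix proteins, 13 fell and 4 rose at passage 9, and 10 fell and 3 rose under shear, with median differences of -0.71 and -0.56. With each library left out in turn, lower calls at passage 9 numbered 9 (without replicate 1 or 3 of P3 or replicate 1 of P9) to 14 (without replicate 1 or 2 of FFSS) and higher calls 2 (without replicate 1 or 3 of P3) to 5 (without replicate 1 or 2 of FFSS). Under shear, lower calls numbered 5 (without replicate 1 or 2 of P3) to 10 (without replicate 1 or 3 of P9 or replicate 1 of FFSS) and higher calls 2 (without replicate 1 or 2 of P3 or replicate 3 of FFSS) to 4 (without replicate 3 of P9). For P9 against FFSS, lower calls numbered 8 to 12 (without replicate 1 of FFSS) and higher calls 5 to 6 (without replicate 1 of P9 or replicate 1 of FFSS). Between the models, 8 were lower in P9 and 5 higher. Col12a1, a fibril-associated collagen, was at 1073, 1041 and 1072 FPKM in the control libraries, 143, 124 and 194 at passage 9 and 669, 701 and 802 under shear. Its differences were -2.81 and -0.56 (adjusted p = 6.22e-05 and 0.0429), and the second was no longer called without any one P3 library or any one FFSS library (adjusted p = 0.0577 to 0.125), nor with no filter, pseudocount 0.1 and no filter, or library totals. Col5a1, a collagen that starts fibrils, was at 739, 778 and 656 FPKM in the control libraries, 311, 437 and 439 at passage 9 and 322, 219.7 and 292 under shear. Its differences were -0.88 and -1.39 (adjusted p = 0.0181 and 0.00227), and the first was no longer called without replicate 1 or 2 of P3 or replicate 1 of P9 (adjusted p = 0.0534 to 0.0774).

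The other named cargo genes moved in opposite directions in the models. Thbs2, a matricellular protein, was at 427, 396 and 458 FPKM in the control libraries, 37.995, 39.9 and 61.3 at passage 9 and 687, 951 and 902 under shear. It fell at passage 9 (log2 difference -3.21, adjusted p = 6.33e-05) and rose under shear (0.97, adjusted p = 0.0109). Acan, the cartilage proteoglycan, was at 128, 135 and 122 FPKM in the control libraries, 609, 576 and 499 at passage 9 and 29.3, 48.2 and 43.2 under shear. It rose at passage 9 (log2 difference 2.12, adjusted p = 0.000288) and fell under shear (-1.68, adjusted p = 0.000827). Other cartilage markers did not follow Acan. Under shear Sox9 rose from 4.52 ± 0.403 to 12.7 ± 2.74 FPKM (limma, adjusted p = 0.00338). Hapln1 rose from 2.23 ± 1.48 to 7.94 ± 1.22 (limma, adjusted p = 0.00924), and Comp and Col9a2 were not called. At passage 9 Sox9, Hapln1, Comp and Col9a2 had differences of 0.42, -0.95, -1.62 and 0.01, none called.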

How the data were processed

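RNA with poly-A tails was sequenced in 9 libraries. According to the submitters' processing notes, the tools included featureCounts 1.5.0-p3 and HISAT2 2.0.5, on Rnor_6.0. Strandedness and settings are not given in the sources used here, so genes overlapping on opposite strands may share reads. The deposited values are FPKM, made by the authors, with the gene length they used. Each FPKM times its length came out as a whole number of fragments (100% of values, tolerance 0.01 of a step), and the scaling between libraries was by median of ratios. A gene of 1 kilobase with 0 fragments could hold up to 3, or 0.186 to 0.220 FPKM (counting error only).

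The model was limma 3.58.1 (R 4.3.3) on log2(FPKM + 1) of the 13059 genes past the filter, with 1 mean per group over all libraries and an intensity trend. Contrasts were two-sided, with Benjamini-Hochberg adjustment over all genes. The model was also run on simulated data with the same added spread in every library and changes only upward in P9. The spread of the members here was unequal between groups, so that run cannot show how the calls behave in these data. All members were named, and from each further list the 2 called genes with the smallest adjusted p in each comparison with P3. The members and lists were chosen with earlier results of these data known. Alternatives, 17 in all, changed the pseudocount (0.1), the filter (none, 5 FPKM, or none with pseudocount 0.1), the scaling (library totals), the test (limma-voom on fragments), the libraries fitted (the 2 groups compared, or each library left out) or added the replicate number as a block. Limma-voom also scaled by library totals, so it changed the test and the scaling together. A planned reading of retrieval signals in the proteins was not run.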

Additional observations from a re-analysis of the deposited data

How the results depend on the processing

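Calls moved with the settings. No called difference of a member changed sign in any of the 17 alternatives, which was largely fixed beforehand. The groups compared did not overlap in any called member, so leaving out a library or changing the pseudocount or filter could not reverse it. Over the members and further named genes, 51 of 2958 values checked changed sign while called in neither setting. The members called lower at passage 9 (7 as reported) numbered 1 to 11 when each library was left out in turn, 4 with library totals, 4 with limma-voom and 11 with only the P3 and P9 libraries. Those called higher numbered 0 throughout. Under shear stress those called lower (6) numbered 3 to 10 and those called higher (2) 0 to 8 over the libraries left out, and the latter were 1 with no filter and 1 with pseudocount 0.1 and no filter. Between P9 and FFSS those called lower (13) numbered 7 to 14 and those called higher (1) 0 to 3 over the libraries left out. With only the P9 and FFSS libraries they were 6 and 0, and those called higher were 2 with library totals and 2 with limma-voom. Shares over all genes are not given for these settings, apart from those without FFSS replicate 1 above. The causes were not tested.

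Same-numbered libraries did not deviate together (Pearson r across genes -0.0408 to 0.0331, and 0 of 9 libraries correlated best with their own number), so the numbers do not pair them. With the replicate number as a block, the members called lower at passage 9 were 3, with Hyou1, Canx, Xbp1 and Sec61a1 lost. Those called under shear were 5 lower and 1 higher, with Sec61a1 and Manf lost. Between the models the block gave 11 lower and 1 higher, with Calr and P4hb lost. Derl3 was under the filter, and whether depth limited its detection was not tested.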

Other observations

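The members were most uniform in the control. The median SD of a member's log2(FPKM + 1) among 3 libraries was 0.0590 in P3, 0.141 in P9 and 0.162 in FFSS, and the largest was 0.781, for Herpud1 in FFSS. The median distance of a member from the P3 mean was 0.176 in FFSS replicate 1, 0.330 in replicate 2 and 0.283 in replicate 3. By role, the 6 tested genes of ER-associated degradation, with Derl3, summed to 257 to 273 FPKM in the control, 201 to 217 at passage 9 and 234 to 418 under shear. The 6 sensors and transcription factors summed to 303 to 308 FPKM in the control, 209 to 215 at passage 9 and 226 to 277 under shear, without overlap between the 3 groups. The vesicle genes summed to 447 to 469.9, 345 to 442 and 376 to 414 FPKM in the same order, both models below P3.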
